A study of Mus musculus with 12 samples.

Results

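The type I interferon response was followed through 9 of its genes, Isg15, Ifit1, Ifit2, Ifit3, Irf7, Stat2, Usp18, Bst2 and Oasl2, in the colon epithelium of mice fed quercetin. They were chosen by name, as probe sets whose array annotation carries one of these symbols. All 9 genes had a probe set, where 12393 genes are named by a probe set of their own, and Stat2 had a pair of them, so that 10 of the 22626 probe sets tested on the array belong to them. The Isg15 probe set is annotated to Isg15 and to Gm9706, a second gene symbol, and the signal of the 2 genes cannot be told apart. The other 9 probe sets carry 1 symbol each.

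The samples were 12 Affymetrix 430A arrays of RNA from epithelium scraped off the colon of male mice aged 6 to 8 weeks. There were 4 groups of 3 arrays: POR-null mice on quercetin, POR-null mice on control diet, wild type C57BL/6 mice on quercetin and wild type C57BL/6 mice on control diet. Quercetin is a plant flavonol, and POR is cytochrome P450 reductase, which passes electrons to the microsomal cytochromes P450. All mice, controls included, had 14 days on a soya-free powder (RM3) and were killed after 24 hours on that powder with or without 6200 ppm quercetin, a dose of 7 mg per mouse. Each array held pooled RNA of 3 mice, so a group stands for 9 mice, a replicate is a pool, and the number of arrays limits the precision. The labels do not say in which cells the null line lacks the reductase. The line known under this name from the literature deletes it in hepatocytes, and the deleted gene itself is not analysed here. Quercetin was compared with control diet in each genotype, the genotypes were compared on each diet, and the 2 quercetin differences were set against each other.

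Type I interferons are secreted proteins that cells make when their sensors detect foreign nucleic acid. They bind a receptor of the IFNAR1 and IFNAR2 chains, whose kinases JAK1 and TYK2 phosphorylate STAT2. STAT2 acts with IRF9 in the factor ISGF3, which binds the interferon-stimulated response element in promoters and switches on antiviral genes. In the gut, a low interferon tone under the influence of the microbiota is known, and epithelial cells respond to type III interferons as well, through a different receptor but the same factor. Of the members, Stat2 encodes a subunit of ISGF3. Irf7 encodes a factor that drives transcription of the interferon alpha genes. Ifit1, Ifit2 and Ifit3 encode proteins that recognise or help to recognise foreign RNA, Bst2 encodes tetherin, which holds budding virus at the cell surface, and Oasl2 encodes a protein related to the oligoadenylate synthetases. Isg15 encodes a ubiquitin-like modifier, and Usp18 encodes the protease that removes it and also restrains signalling at the receptor.

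The promoter stretches that carry the response element are shown because that element is the sequence through which ISGF3 is known to act. The 250 bases before the gene start were searched on both strands for the core of the element, the letters TTTC, then any 2 bases, then TTTC, with overlapping matches allowed. Of the 9 member genes, 8 had an entry in the RefSeq promoter table of GRCm38.p6, and 5 of these 8 held at least 1 match. Across all entries 936 of 27025 genes, or 3.46%, held one, and 17 of 54 antiviral target genes outside the members, or 31.5%, did. Each stretch reads 5′ to 3′ along the gene's strand, with 20 bases on either side of the matches. Capitals mark the matches, which on the other strand read GAAA, any 2 bases, GAAA.
Isg15 (chr4:156200855-156200916, minus strand, 3 overlapping matches): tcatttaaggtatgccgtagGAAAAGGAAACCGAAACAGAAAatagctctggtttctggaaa
Ifit1 (chr19:34640765-34640833, plus strand, 2 matches): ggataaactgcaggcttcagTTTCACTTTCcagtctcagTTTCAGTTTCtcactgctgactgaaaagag
Ifit3 (chr19:34583353-34583436, plus strand, 2 matches): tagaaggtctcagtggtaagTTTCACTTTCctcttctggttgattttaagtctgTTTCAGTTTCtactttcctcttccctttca
Stat2 (chr10:128270256-128270305, plus strand, 1 match): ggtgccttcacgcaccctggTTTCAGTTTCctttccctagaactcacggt
Bst2 (chr8:71537567-71537622, minus strand, 2 overlapping matches): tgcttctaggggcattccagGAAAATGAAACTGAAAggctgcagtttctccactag
The matches began 78, 72 and 66 bases before the start in Isg15, 104 and 85 in Ifit1, 156 and 122 in Ifit3, 130 and 124 in Bst2, and 222 in Stat2. The windows of Ifit2, which has 2 annotated starts, and of Irf7 and Oasl2 held no match to these letters. A match is a description of the sequence, and no binding was measured here.

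The tissue read as colon epithelium on all arrays. The mean log2 signal of 18 absorptive colonocyte genes lay between 11.35 and 11.62, and that of 8 goblet cell genes between 11.43 and 11.95. The signal of genes of other cell types differed between arrays. The mean of 12 pancreatic acinar genes was 9.83 on POR-null quercetin array 2, 8.89 on wild type control array 1 and 7.49 on wild type control array 2, and lay between 6.06 and 7.15 on the other 9 arrays. Smooth muscle genes ran from 6.07 to 9.32 and MHC class II genes from 6.53 to 8.87. On each of the 12 arrays all 10 member probe sets read above the array's median, which lay between 5.9 and 5.98. That is a mark of signal above the low end of the table and not a ranking of genes, since probe sets differ in how brightly they bind. In RNA from whole scrapings, fewer cells of a type and less RNA per cell cannot be told apart.

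Stat2, the ISGF3 subunit, was read by a brighter and a dimmer probe set. At its brighter probe set it read 6.67, 6.88 and 6.81 in POR-null quercetin arrays 1 to 3, 6.99, 6.83 and 6.85 in POR-null control arrays, 6.56, 6.88 and 6.93 in wild type quercetin arrays, and 6.96, 6.61 and 6.65 in wild type control arrays. All 4 groups overlapped there, and the 12 values spanned 0.43 log2 units, against 0.71 at the dimmer probe set. At its dimmer probe set it read 6.63, 6.81 and 6.91 in POR-null quercetin arrays, 6.90, 6.82 and 6.90 in POR-null control arrays, 6.29, 6.66 and 6.95 in wild type quercetin arrays, and 6.79, 6.76 and 6.24 in wild type control arrays. Here the 3 POR-null control arrays all lay above the 3 wild type control arrays, narrowly, and the remaining groups overlapped. Over the 12 arrays the probe sets correlated with r = 0.73.

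Irf7, the factor for interferon alpha genes, read 10.62, 10.71 and 10.29 in POR-null quercetin arrays, 10.61, 10.15 and 10.56 in POR-null control arrays, 10.06, 10.54 and 10.48 in wild type quercetin arrays, and 10.72, 10.60 and 10.42 in wild type control arrays. The lowest value was that of wild type quercetin array 1 and the highest that of wild type control array 1, and all groups overlapped.

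Ifit1, which binds foreign RNA by its cap, read 10.96, 10.57 and 9.85 in POR-null quercetin arrays, 10.47, 10.17 and 10.58 in POR-null control arrays, 10.03, 10.57 and 10.35 in wild type quercetin arrays, and 10.58, 10.59 and 10.12 in wild type control arrays. Its highest and lowest arrays both belonged to POR-null quercetin, where the SD was 0.56. The group means spanned only 0.14 log2 units, from 10.32 to 10.46.

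Ifit2, its neighbour on chromosome 19, had the widest spread within groups, a pooled SD of 0.49. It read 6.85, 7.32 and 6.33 in POR-null quercetin arrays, 7.19, 6.61 and 7.33 in POR-null control arrays, 6.82, 6.97 and 7.49 in wild type quercetin arrays, and 7.47, 6.68 and 6.17 in wild type control arrays. Wild type control held nearly the full range on its own, with its array 1 close to the top and its array 3 at the bottom.

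Ifit3, which strengthens RNA binding by Ifit1, read 8.83, 8.74 and 7.77 in POR-null quercetin arrays, 8.05, 7.89 and 8.26 in POR-null control arrays, 7.62, 8.43 and 8.01 in wild type quercetin arrays, and 8.49, 8.01 and 7.68 in wild type control arrays. POR-null quercetin arrays 1 and 2 were the 2 highest of the 12, while array 3 of that group sat among the lowest.

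Bst2, or tetherin, read 6.85, 7.10 and 6.89 in POR-null quercetin arrays, 7.15, 6.90 and 6.44 in POR-null control arrays, 6.37, 6.91 and 6.42 in wild type quercetin arrays, and 7.32, 6.77 and 6.82 in wild type control arrays. Wild type quercetin held the lowest value and, at array 3, the next to lowest, but its array 2 lay within the range of each other group.

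Oasl2 read 9.19, 9.41 and 9.42 in POR-null quercetin arrays, 9.24, 9.33 and 9.69 in POR-null control arrays, 8.68, 9.55 and 9.45 in wild type quercetin arrays, and 9.45, 9.88 and 9.61 in wild type control arrays. The low group mean of wild type quercetin, 9.23 with an SD of 0.48, had array 1 at 8.68 and the others at 9.45 and above. The groups compared overlapped.

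The modifier Isg15, measured with Gm9706, read 8.25, 9.10 and 8.57 in POR-null quercetin arrays, 8.65, 8.41 and 8.40 in POR-null control arrays, 7.85, 8.44 and 8.43 in wild type quercetin arrays, and 9.27, 8.35 and 8.28 in wild type control arrays. A single array stood high in each of 2 groups, POR-null quercetin array 2 and wild type control array 1, and wild type quercetin array 1 stood low.

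Usp18, the protease that removes Isg15, read 8.36, 8.51 and 8.27 in POR-null quercetin arrays, 8.54, 8.29 and 8.15 in POR-null control arrays, 7.91, 8.40 and 8.34 in wild type quercetin arrays, and 8.62, 8.18 and 7.87 in wild type control arrays. Its highest and lowest values both fell in wild type control, and its group means lay within 0.16 log2 units of each other.

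**Figure D1:**
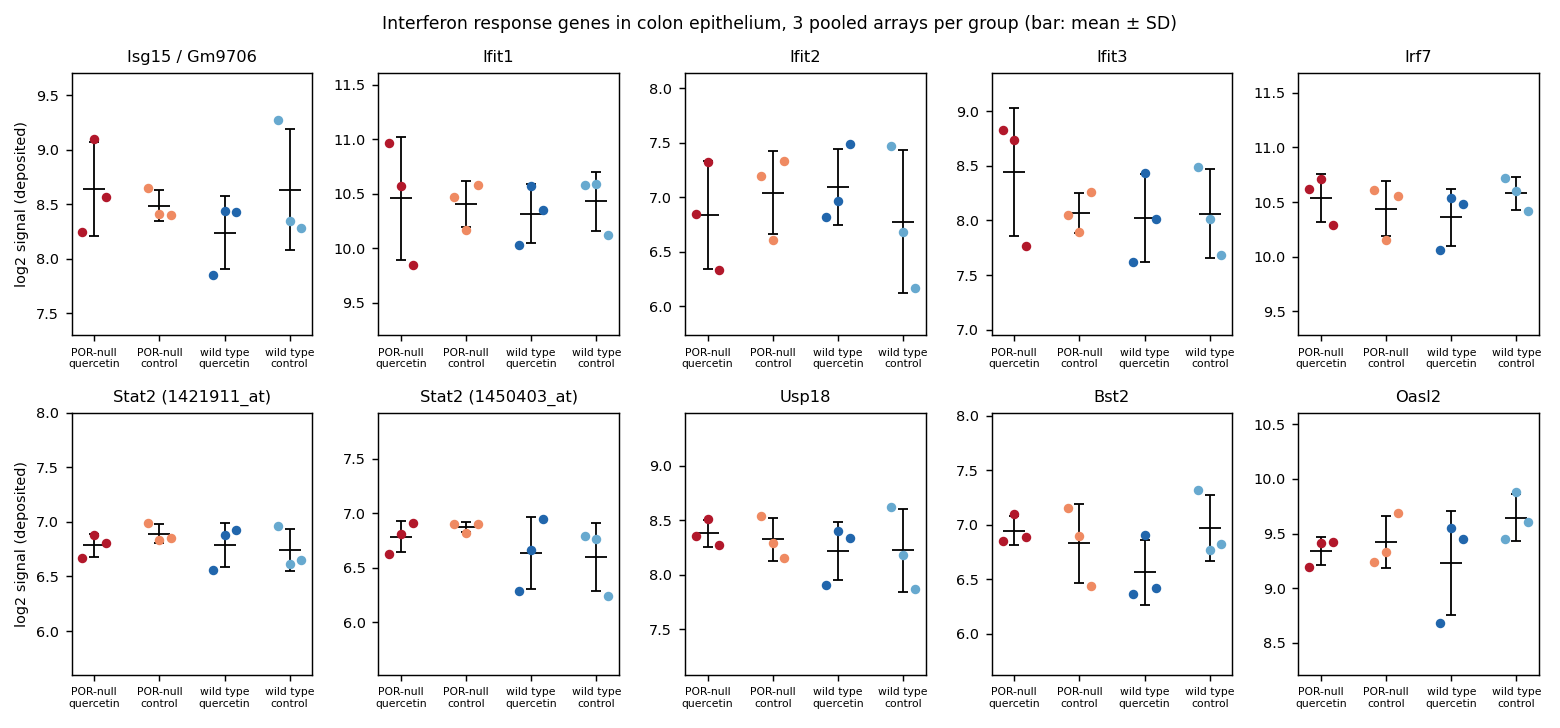
Deposited log2 signal of the 10 member probe sets (vertical axis, equal span in every panel) in the 4 groups (horizontal axis), with 1 point per array and the mean ± SD of 3 arrays in black. The points of the groups compared overlap in every panel except that of the dimmer Stat2 probe set, the right one of the pair, where the POR-null control points lie above the wild type control points.

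In wild type mice, the members differed by 0.42 log2 units or less between quercetin and control diet. The mean was lower on quercetin for 7 of 10 probe sets, against 11090 of all 22626. Oasl2 averaged 9.23 ± 0.48 on quercetin and 9.65 ± 0.22 on control diet (SD, n = 3 each), a difference of -0.42 (SE 0.20, 95% interval -0.86 to 0.02). Bst2 averaged 6.57 ± 0.30 on quercetin and 6.97 ± 0.30 on control diet (SD, n = 3 each), a difference of -0.40 (SE 0.20). Isg15 with Gm9706 averaged 8.24 ± 0.34 on quercetin and 8.63 ± 0.55 on control diet, a difference of -0.39 (SE 0.26). The largest positive difference was that of Ifit2, 0.32 (SE 0.32, 95% interval -0.37 to 1.01). None of these passed: the smallest p adjusted by Benjamini and Hochberg in limma over all probe sets was 0.957.

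Of the 10 member probe sets, 0 passed an adjusted p of 0.05 in wild type mice, against 0.0% of all 22626, and 0 had an unadjusted limma p under 0.05, against 5.15% of all. No member separated the 2 groups without overlap, which 9.31% of all probe sets did. The median difference of the members was -0.08, and that of all probe sets was 0.00 log2 units. Single arrays moved these values. Without wild type quercetin array 1 the Oasl2 difference was -0.15, without wild type quercetin array 2 it was -0.58, while Isg15 differed by -0.07 without wild type control array 1 and by -0.57 without wild type control array 3. Ifit2 differed by 0.67 without wild type control array 1 and by 0.02 without wild type control array 3. Leaving out wild type control arrays 1 and 2 and POR-null quercetin array 2, those of high acinar signal, made the Isg15 difference -0.04 and the Ifit2 difference 0.92 (SE 0.32, unadjusted p = 0.0169, adjusted p = 0.998 in limma), with 1 wild type control array left and its spread taken from the other groups.

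In POR-null mice, the members differed by -0.21 to 0.38 log2 units between quercetin and control diet. Ifit3 averaged 8.45 ± 0.59 on quercetin and 8.07 ± 0.19 on control diet (SD, n = 3 each), a difference of 0.38 (SE 0.28, 95% interval -0.23 to 0.99). Isg15 with Gm9706 averaged 8.64 ± 0.43 on quercetin and 8.49 ± 0.14 on control diet, a difference of 0.15 (SE 0.26), and Bst2 differed by 0.12 (SE 0.20). Ifit2 had the most negative difference, -0.21 (SE 0.32), with means of 6.83 ± 0.50 on quercetin and 7.04 ± 0.38 on control diet.

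In limma, 0 of 10 probe sets passed in POR-null mice (0.0% of all), 0 had an unadjusted p under 0.05 (2.82% of all), and 0 separated the groups (6.75% of all). The means were higher on quercetin for 6 probe sets and lower for 4, against 11780 and 10669 of all 22626, with a median difference of 0.05. Without POR-null quercetin array 3, its lowest, Ifit3 differed by 0.72 (unadjusted p = 0.0116 in limma), and without POR-null quercetin array 1 by 0.19. The smallest adjusted p of this difference with any 1 array left out was 0.716 in limma.

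POR-null and wild type mice on control diet differed by 0.28 log2 units or less at every member. The dimmer Stat2 probe set averaged 6.87 ± 0.05 in POR-null and 6.60 ± 0.31 in wild type (SD, n = 3 each), a difference of 0.28 (SE 0.17, 95% interval -0.09 to 0.64, adjusted p = 0.782 in limma). The brighter Stat2 probe set differed by 0.15 (SE 0.12) and its groups overlapped. Ifit2 differed by 0.27 (SE 0.32), Usp18 by 0.10 (SE 0.18) and Oasl2 by -0.23 (SE 0.20).

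By limma, 0 of 10 members passed on control diet (0.0% of all), 0 had an unadjusted p under 0.05 (6.79% of all) and 1, the dimmer Stat2 probe set, separated the groups (9.67% of all). The members' median difference was -0.01, and so was that of all probe sets. Over the whole array the count of this comparison depended on the fit: it was 0 as given, 399 with arrays weighted by their quality, 41 without wild type control array 1, and 47 with the replicate number as a block on the control diet arrays. The members passing remained 0 in each, with the dimmer Stat2 probe set nearest at a difference of 0.39 and an adjusted p of 0.179 in limma with array weights. Without the 3 arrays of high acinar signal this probe set differed by 0.63 and Ifit2 by 0.87, with adjusted p of 0.81 and 0.851 in limma.

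On the quercetin diet, 8 of 10 probe sets had the higher mean in POR-null mice, against 10727 of all 22626. By gene, with Stat2 at its brighter probe set, it was 7 of 9. Ifit3 averaged 8.45 ± 0.59 in POR-null and 8.02 ± 0.41 in wild type (SD, n = 3 each), a difference of 0.43 (SE 0.28, 95% interval -0.18 to 1.03). Isg15 with Gm9706 averaged 8.64 ± 0.43 in POR-null and 8.24 ± 0.34 in wild type, a difference of 0.40 (SE 0.26). Bst2 averaged 6.95 ± 0.13 in POR-null and 6.57 ± 0.30 in wild type, a difference of 0.38 (SE 0.20). Ifit2 differed by -0.26 (SE 0.32).

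The limma count on quercetin was again 0 of 10 passing (0.0% of all), 0 at an unadjusted p under 0.05 (2.39% of all) and 0 without overlap (6.82% of all). The smallest unadjusted limma p was 0.0784 for Bst2, with an adjusted p of 0.998. Without POR-null quercetin array 3 the difference of Ifit3 was 0.76, and without wild type quercetin array 1 it was 0.23.

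The quercetin difference in POR-null mice minus that in wild type mice was 0.55 for Isg15 with Gm9706 (SE 0.37), 0.52 for Bst2 (SE 0.28), 0.42 for Ifit3 (SE 0.40) and -0.53 for Ifit2 (SE 0.45). Here limma passed 0 of 10 members (0.0% of all), with 0 at an unadjusted p under 0.05 (4.74% of all) and a smallest adjusted p of 0.998. Without the 3 arrays of high acinar signal the value of Ifit2 was -1.38 (SE 0.41, adjusted p = 0.999 in limma), that of Isg15 -0.04, that of Ifit3 -0.11 and that of Bst2 0.29. With 1 array left out, Isg15 ran from 0.23 to 0.74, Bst2 from 0.33 to 0.69, Ifit3 from 0.20 to 0.76 and Ifit2 from -0.88 to -0.23. The comparisons share groups, so their values are not independent of each other. Wild type control enters the quercetin difference of wild type mice and the genotype difference on control diet with the same sign.

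The intervals give the range of differences that the values of each member, taken singly, allow. They are not adjusted for their number. A difference larger than a half-width could still miss the threshold, which is adjusted over all probe sets. Of the 40 differences between 2 groups, 38 had a 95% interval inside a 2-fold change in either direction, 1 log2 unit. The exceptions were Ifit2 in wild type mice, up to 1.01, and Ifit3 between genotypes on quercetin, up to 1.03. Half-widths of these 40 ran from 0.27 for the brighter Stat2 probe set to 0.69 for Ifit2, with a median of 0.44. The difference of the 2 quercetin differences was less precise. There 6 of 10 intervals lay inside a 2-fold change, and limits reached -1.51 for Ifit2 and 1.35 for Isg15 with Gm9706.

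**Figure D2:**
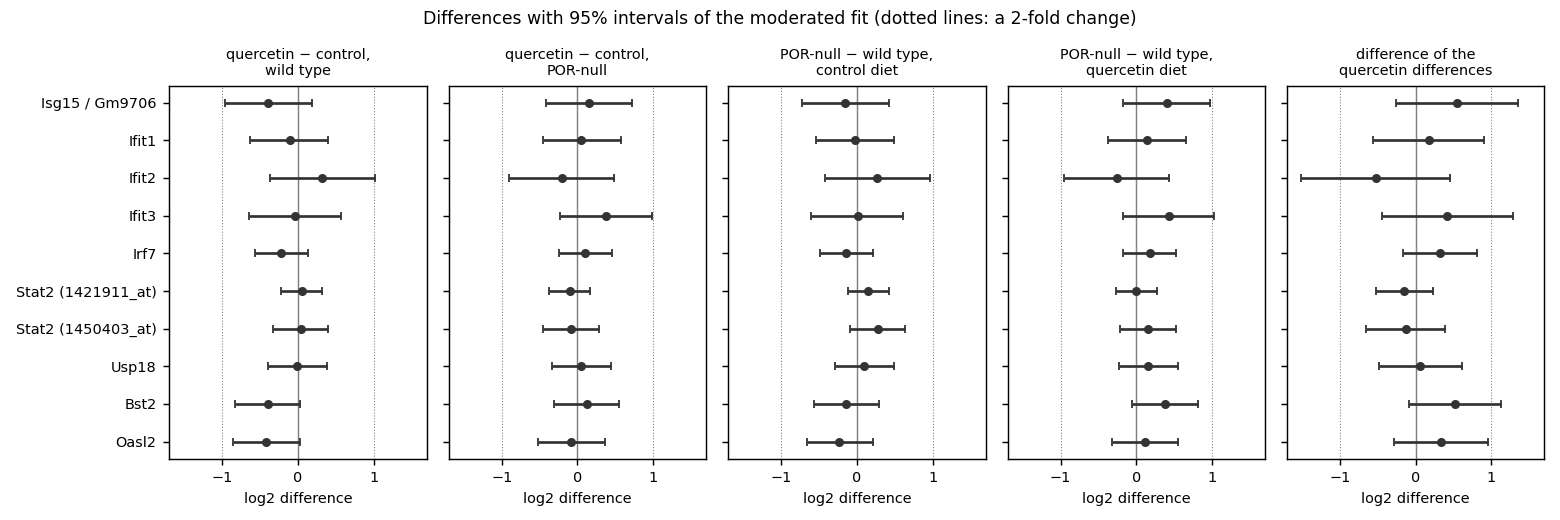
Log2 differences of the 10 member probe sets in the 5 comparisons (horizontal axis), as points with 95% intervals of the moderated limma fit over 12 arrays. Dotted lines stand at a 2-fold change either way, and every interval takes in 0.

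At each member, the arrays of at least 1 group lay further apart than the 4 group means did. Ifit1 ran from 9.85 to 10.96 within POR-null quercetin, while its group means spanned 0.14 log2 units. The pooled SD within groups ran from 0.15 to 0.49 log2 units. Values of a member spanned 0.43 to 1.42 log2 units over the 12 arrays, while its group means spanned 0.14 to 0.43. Wild type control array 1 lay above the member's own mean for 10 of 10 probe sets, by 0.34 on average over the 9 genes, and was the highest array for 4. POR-null quercetin array 2 lay above it for all 10 as well, by 0.28. Wild type quercetin array 1 lay below it for all 10, by 0.43, and was the lowest array for 6, whereas wild type control array 3 lay 0.24 below on average.

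Most pairs of members had an r above 0 over the arrays, and 20 reached 0.5. No pairs of other genes were set beside them. Among 36 pairs of the 9 genes, each at its brighter probe set, Pearson's r over the 12 arrays ran from -0.02 to 0.86 with a median of 0.52, and 35 pairs were above 0. The closest pair was Ifit1 and Ifit3, neighbours on chromosome 19. With group means removed the median was 0.61. Against the mean profile of the 9 genes, Irf7 had r = 0.90 and Usp18 0.87, and Oasl2 had the lowest value, 0.38. Each gene is itself part of that mean, which raises these r. These r describe 12 arrays that share 4 groups, their RNA pools and their processing.

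Several cell type lists differed between the same arrays, and their part in the members' values was not tested. Wild type control array 1, high for the members, had means of 8.89 for acinar genes, 8.04 for MHC class II genes, 7.76 for 14 B and plasma cell genes and 6.44 for 19 macrophage and dendritic cell genes. Wild type control arrays 2 and 3 had 6.66 and 6.53 for MHC class II, 6.85 and 6.67 for B and plasma cells, and 5.89 and 5.87 for macrophages and dendritic cells. Wild type quercetin array 1, low for the members, had 7.65 for MHC class II, 7.37 for B and plasma cells and 6.32 for macrophages and dendritic cells, within the range of the other arrays, and the lowest acinar mean, 6.06. The 9 measured genes of plasmacytoid dendritic cells, which are strong makers of interferon, had means between 6.16 and 6.44 on all arrays.

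**Figure D3:**
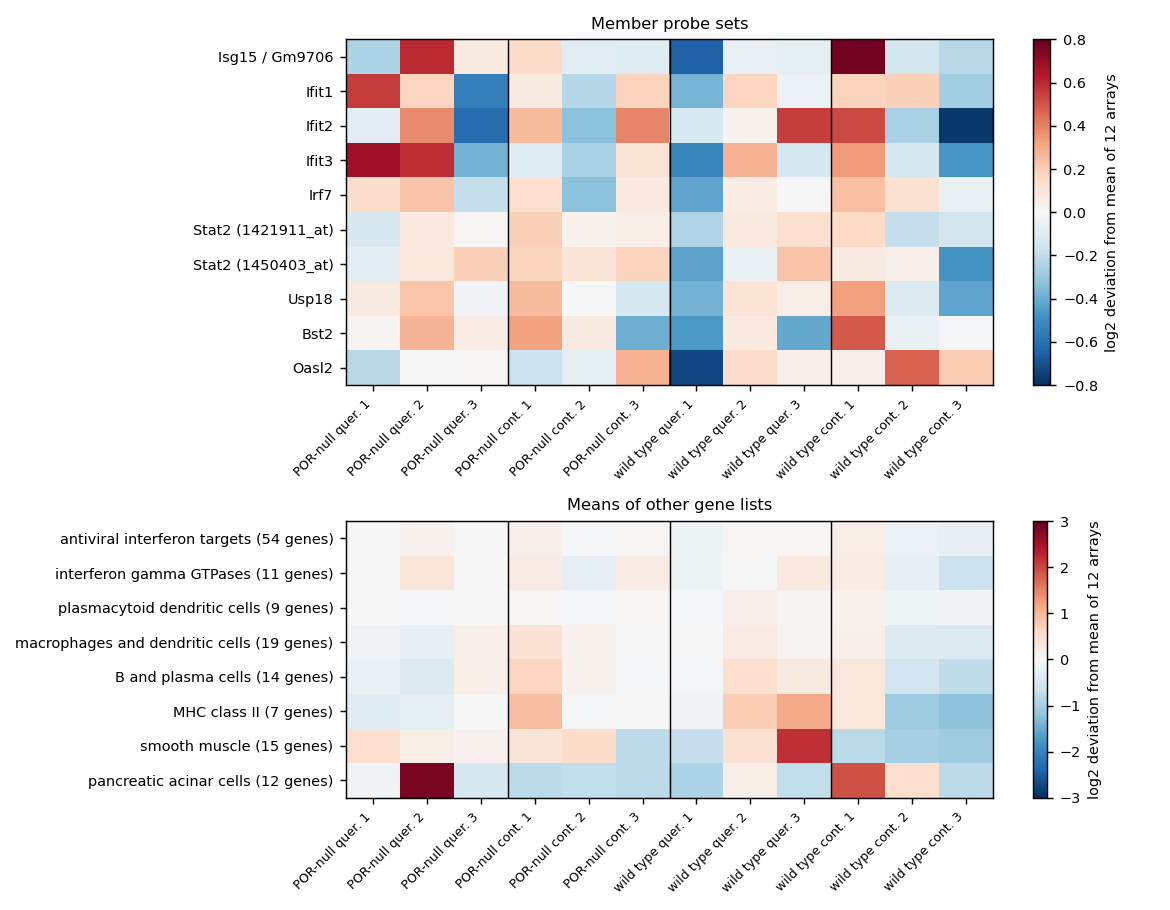
Deviation of each array from the mean of the 12 arrays in log2 units (colour), for the member probe sets above and for the means of other gene lists below, with arrays in columns and black lines between groups. Wild type control array 1 is red and wild type quercetin array 1 blue over the members, and the acinar list is dark red on POR-null quercetin array 2.

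The 10 genes whose profile over the 12 arrays was most like the members' mean were found among the probe sets of 1 symbol. Rtp4, an interferon-induced chaperone of receptors, came first with r = 0.95 (0.96 with group means removed). Its signal was 9.85, 10.10 and 9.69 in POR-null quercetin arrays, 10.01, 9.74 and 9.88 in POR-null control arrays, 9.36, 9.82 and 9.93 in wild type quercetin arrays, and 10.25, 9.70 and 9.43 in wild type control arrays. Wild type control array 1 was its highest and wild type quercetin array 1 its lowest. That is no separate result, since Rtp4 was picked by its likeness to the members' mean. Oas3, an oligoadenylate synthetase (r = 0.88), and Ifih1, which encodes the RNA sensor MDA5 (r = 0.87), were the other 2 of the 10 that stand on the interferon lists. The remaining 7 were Rpl35 (0.89), Apoa1 (0.88), Smpdl3b (0.87), Gk2 (0.86), Eomes (0.86), Slc26a6 (0.84) and Tpbpb (0.84). Gk2, Eomes and Tpbpb read below the lower quartile of every array, so their r describes signal at the low end of the table. Of 22616 other probe sets, 12 reached the r of the tenth gene, and their median r was -0.02.

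A further 7 lists covered the rest of the pathway, with each gene at its brightest probe set, and no gene of any list passed an adjusted p of 0.05 in limma in any of the 5 comparisons. The interferons themselves were represented by 9 of 18 listed genes. Ifnb1, or interferon beta, read 5.37 ± 0.15 and 5.21 ± 0.24 in POR-null mice on quercetin and control diet, and 5.26 ± 0.09 and 5.32 ± 0.09 in wild type mice on quercetin and control diet (SD, n = 3 each). Its differences between 2 groups lay between -0.11 and 0.16. Ifnab had 3 arrays apart from 3 in 2 comparisons: it averaged 4.15 ± 0.11 on quercetin and 3.88 ± 0.14 on control diet in POR-null mice, against 4.18 ± 0.09 in wild type mice on control diet. Ifng, or interferon gamma, averaged 3.97 ± 0.12 in POR-null and 4.16 ± 0.10 in wild type mice on quercetin (-0.19, SE 0.08). The levels of Ifnab and Ifng lay below the lower quartile of each array, which was 4.66 to 4.78.

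Receptor chains and signal carriers were measured for 9 of 11 genes. Ifnar1 averaged 6.25 ± 0.16 on quercetin and 6.30 ± 0.14 on control diet in POR-null mice, and 6.25 ± 0.04 on quercetin and 6.35 ± 0.24 on control diet in wild type mice. Ifnar2 differed by -0.11 to 0.02 in the comparisons between 2 groups, and by -0.17 to 0.22 at its other probe set, and Irf9, the DNA-binding partner of Stat2, by -0.17 to 0.16. With each gene at its brightest probe set, 1 of the 9, Ifngr2, a chain of the interferon gamma receptor, had an unadjusted p under 0.05 in wild type mice (5.15% of all probe sets), with 8.99 ± 0.12 on quercetin and 9.26 ± 0.19 on control diet in wild type mice (-0.27, SE 0.12, adjusted p = 0.957 in limma). Its other probe set differed by -0.07. Jak1, the receptor kinase, differed between genotypes on control diet by 0.14 at its brightest probe set, and by 0.30 (unadjusted p = 0.0141 in limma) and -0.04 at its others.

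Of 11 nucleic acid sensors and adaptors, 0 had an unadjusted p under 0.05 in limma at the brightest probe set in any of the 5 comparisons. The share of all probe sets was 2.39% to 6.79%. Zbp1, a sensor of Z-form nucleic acid, averaged 8.30 ± 0.17 in POR-null and 7.99 ± 0.37 in wild type mice on control diet (0.31, SE 0.18). Its other probe set differed by 0.57 (unadjusted p = 0.0372, adjusted p = 0.734 in limma). Among 6 regulatory factors, Irf1, which interferon gamma induces strongly, averaged 9.70 ± 0.16 on quercetin and 9.35 ± 0.29 on control diet in wild type mice (0.35, SE 0.15), and 9.74 ± 0.22 in POR-null mice on control diet (0.39 above wild type, SE 0.15). Irf4, a factor of lymphocytes, averaged 5.65 ± 0.03 in POR-null mice on quercetin, 5.42 ± 0.09 in POR-null mice on control diet and 5.41 ± 0.11 in wild type mice on quercetin. Its second probe set differed by -0.12 between diets in POR-null mice by -0.30 between genotypes on quercetin and by 0.41 between diets in wild type mice (unadjusted p = 0.0204 in limma).

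Antiviral target genes were measured for 54 of 70 listed. At an unadjusted p under 0.05 in limma, 3 were higher and 1 lower on quercetin in wild type mice (3.2% and 1.94% of all probe sets), and 1 and 0 in POR-null mice (1.29% and 1.53%). Between genotypes 3 were higher and 2 lower on control diet (3.68% and 3.11%), and 1 and 1 on quercetin (1.03% and 1.36%). The median differences were 0.05, 0.04, 0.08 and 0.04 log2 units, close to those of all probe sets, which lay between -0.01 and 0.01.

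Ifi44l, an interferon-induced gene of the minigene family, is described first among these genes. It read 5.08, 6.20 and 4.75 in POR-null quercetin arrays, 5.49, 4.99 and 5.40 in POR-null control arrays, 4.54, 4.65 and 4.34 in wild type quercetin arrays, and 5.06, 3.83 and 4.10 in wild type control arrays. POR-null arrays lay above wild type arrays on quercetin without overlap, and wild type control array 1 overlapped POR-null on control diet. The differences were 0.83 (SE 0.34, unadjusted p = 0.0304, adjusted p = 0.998 in limma) on quercetin and 0.96 (SE 0.34, unadjusted p = 0.0148, adjusted p = 0.712) on control diet. A dimmer probe set of Ifi44l gave 0.56 and 0.72, and the dimmest of its probe sets 0.04 and 0.05.

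Chemokine genes were among those named. Cxcl11 read 5.13, 5.07 and 4.81 on quercetin and 5.56, 5.23 and 5.39 on control diet in wild type mice (-0.39, SE 0.11, unadjusted p = 0.00482, adjusted p = 0.948 in limma), with no overlap, and its other, dimmer probe set differed by 0.08. Cxcl9 differed by 0.28 in the same comparison. Cxcl10 averaged 5.58 ± 0.09 on quercetin and 5.23 ± 0.29 on control diet in wild type mice (0.35, SE 0.13), and Ccl5, which draws T cells, 8.04 ± 0.46 and 7.45 ± 0.26 (0.59, SE 0.23). Mx1, a GTPase against influenza virus that is defective in many inbred mouse strains, read 6.90 on wild type control array 1 and 5.40 and 5.38 on the other 2 wild type control arrays, and between 5.95 and 6.73 on the remaining 9 arrays. Mx2, a related GTPase, differed by -0.06 to 0.18, Oas1a by 0.02 to 0.19, and Rsad2, or viperin, by -0.13 to -0.01, in the comparisons between 2 groups. The other 2 probe sets of Rsad2 differed by -0.39 to 0.16 and by -0.31 to 0.00.

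Feedback inhibitors were measured for all 7 listed genes. Socs3, which blocks JAK kinases, read 6.51 ± 0.08 on quercetin and 6.84 ± 0.17 on control diet in POR-null mice without overlap (-0.33, SE 0.13, unadjusted p = 0.0239, adjusted p = 1 in limma). Its other 2 probe sets differed by -0.56 and -0.20. Ptpn2, a phosphatase of STAT proteins, averaged 8.17 ± 0.12 in POR-null and 7.92 ± 0.12 in wild type mice on control diet (0.25, SE 0.09, adjusted p = 0.718 in limma). Its other 3 probe sets differed by 0.06, -0.02 and -0.07.

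Of the interferon gamma GTPases, 11 of 15 listed were measured. On quercetin 10 of the 11 had the higher mean in wild type mice (median 0.25), and 4 in POR-null mice (median -0.04). Between genotypes 3 had the higher mean in POR-null mice on quercetin (median -0.09) and 10 on control diet (median 0.18), and the comparisons of 10 share the wild type control arrays. At an unadjusted p under 0.05 in limma, 1 was higher and 0 lower in each of these 4 comparisons, against the shares of all probe sets given for the antiviral genes. Cell type lists differed between the same groups, and their part in these values was not tested. MHC class II genes had median differences of 1.46 on quercetin in wild type mice, -0.58 on quercetin in POR-null mice, -0.94 between genotypes on quercetin and 1.16 between genotypes on control diet. In the same order the medians were 1.79, 0.17, -0.44 and 1.34 for smooth muscle, 0.77, -0.15, -0.24 and 0.65 for fibroblasts and matrix, and -1.13, 1.60, 1.38 and -1.42 for acinar genes. Gbp2, a guanylate-binding protein, read 7.75, 8.43 and 8.20 in POR-null quercetin arrays, 8.36, 8.03 and 8.87 in POR-null control arrays, 8.31, 8.22 and 8.58 in wild type quercetin arrays, and 8.32, 7.02 and 6.55 in wild type control arrays. Wild type control arrays 2 and 3 stood alone at the low end, and array 1 of that group was among the rest. Gbp2 was 1.07 higher on quercetin in wild type mice (SE 0.36, adjusted p = 0.952 in limma) and 1.12 higher in POR-null mice on control diet (SE 0.36, adjusted p = 0.71). Without wild type control array 1 the genotype difference was 1.64 and passed, with an adjusted p of 0.0318 in limma. Without array 2 or array 3 of that group, 0 of all probe sets passed between genotypes on control diet.

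Gbp2b, its close relative, read 5.25, 7.47 and 7.86 in POR-null quercetin arrays, 5.33, 4.96 and 5.04 in POR-null control arrays, 5.12, 5.20 and 5.14 in wild type quercetin arrays, and 5.07, 5.12 and 5.19 in wild type control arrays. Arrays 2 and 3 of POR-null quercetin were high, and the other 10 arrays lay between 4.96 and 5.33. The quercetin difference in POR-null mice was 1.75 (SE 0.46, unadjusted p = 0.00233, adjusted p = 1 in limma). Without POR-null quercetin array 1, the low one of its group, it was 2.56 with an adjusted p of 9.92e-06 in limma. Without array 2 or array 3 of that group, 0 of all probe sets passed in this comparison. The smallest adjusted p in limma was then 0.428 and 0.999. On POR-null quercetin array 2 all 10 member probe sets lay above their own mean, and on array 3, 5 of the 10 did.

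**Figure D4:**
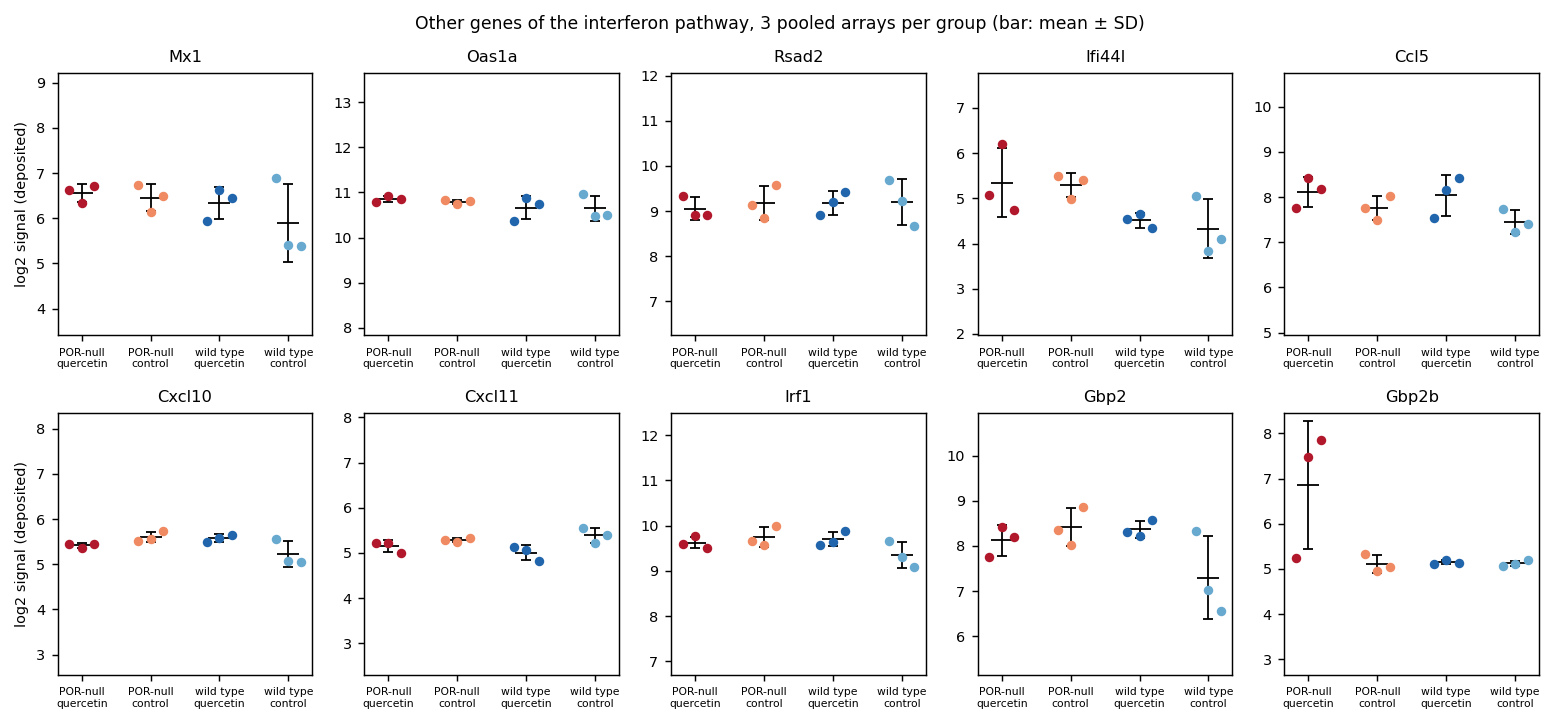
Deposited log2 signal of 10 other interferon pathway genes (vertical axis, equal span in every panel) in the 4 groups (horizontal axis), with 1 point per array and the mean ± SD of 3 arrays in black. Gbp2 is low on 2 wild type control arrays and Gbp2b high on 2 POR-null quercetin arrays, while Oas1a and Rsad2 overlap between the groups compared.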

How the data were processed

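Biotin-labelled colon epithelial RNA was measured on 12 Affymetrix 430A arrays, each a pool of 3 mice. The authors deposited 1 table of signals per probe set, which was used as it stands. Its values, from 2.7 to 14.09, were taken as log2 signal, since the deposited table names no scale. MAS5 and RMA are named in the submitters' processing notes, and which of them made these values is not given in the sources used here. Scanner files were not used here, so background correction, probe summary and scan batch were not varied.

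Of 22690 probe sets, 64 controls were left out and 22626 tested with no filter on signal. The array annotation gave 20380 of them 1 gene symbol, 691 several and 1555 none. The software was R 4.3.3 with limma 3.58.1 (lmFit, then eBayes with trend). All 12 arrays entered 1 fit of 4 group means, with 8 residual and 4.91 prior degrees of freedom, two-sided tests and Benjamini-Hochberg adjustment over all probe sets at 0.05. SE are those of this fit and p-values measure the spread between pools. No 2 arrays were identical.

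Same-numbered arrays were checked for pairing by the correlation of their deviations from group means. It was 0.193, 0.106 and 0.26 between genotypes on control diet, and of mixed sign or under 0.1 for some number in the other comparisons. The labels give no shared litter or day, so this pairing comes from the data alone, and a fit with the number as a block is given beside that comparison.

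Members and lists were chosen with earlier results of these data known. Named pathway genes were those past the threshold or else up to 5 per list of the smallest unadjusted p, with Irf9, Ifnar1, Ifnar2, Mx1, Mx2, Oas1a and Rsad2 in any case. A gene's first probe set was the one of the highest mean. Cell type lists were summarised as the mean over genes per array, with no class built from them.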

Additional observations from a re-analysis of the deposited data

How the results depend on the processing

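The members passing the threshold were 0 in each comparison that was run under the 22 alternatives: quantile normalization, centring on the median, a filter on dim probe sets, eBayes without trend, array weights, a fit of only the groups compared, a replicate block, a mean over a gene's probe sets, each of the 12 arrays left out, and 2 alternatives chosen after seeing the data (3 arrays of high acinar signal left out, and a replicate block on control diet arrays). The difference of differences was not run with only the groups compared, and the block on control diet arrays was run for the genotypes on that diet. Of 1000 member values under these alternatives, apart from the mean over probe sets, 929 kept their sign and side of the threshold and 71 changed sign without passing. Part of this was fixed in advance. The dim filter, eBayes without trend, the fit of only the groups compared and the replicate blocks change a difference's spread and not its value. Leaving out an array outside the groups compared does not change the value either. The smallest adjusted p was 0.179 in limma. At an unadjusted limma p under 0.05 the members numbered at most 2 of 10 under any alternative. Among fits with more than 1 array in every group, 2 were reached in wild type mice without wild type control array 1 or wild type quercetin array 2. Of all 22626 probe sets, 1941 and 950 did so there. Between genotypes on quercetin, 2 were reached without POR-null quercetin array 3, against 743 of all probe sets.

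Over all 22626 probe sets, where 0 passed as given, array weights passed 2 on quercetin against control in wild type mice and 399 between genotypes on control diet. Between genotypes on quercetin, 1 passed with only the groups compared and 1 with the replicate block, which gave 0 elsewhere. The replicate block on control diet arrays passed 47 and leaving out the acinar arrays passed 1 between genotypes on control diet. Leaving out 1 array gave 0 to 3 in wild type mice, 0 to 1 in POR-null mice, 0 to 41 between genotypes on control diet, 0 to 1 on quercetin and 0 to 1 for the difference of differences. The causes were not tested. The acinar exclusion leaves 1 wild type control array, whose spread is assumed to be that of the other groups. With array weights Cxcl10 (0.46), Ifitm1 (1.16), Gbp2 (1.28) and Ifnab (-0.37) passed between genotypes on control diet.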
